A study of Mus musculus with 8 samples.

Results

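The genes described here are 7 transcription factor genes linked to the maturation of absorptive cells in the intestine: Maf, Mafg, Mafk, Prdm1, Isx, Elf3 and Ehf. They were found by matching the Ensembl identifiers of the deposited tables to mouse symbols, and all 7 of the listed symbols were present among 23318 genes. The list was drawn up with the difference between the sorted fractions in view, so for these genes that difference is given as a description and without a test. RNA had been sequenced from mouse small intestinal epithelium sorted on CD24, a surface glycoprotein that is carried by crypt cells. There were 4 libraries of CD24Neg cells (numbered 2, 4, 6 and 8) and 4 of CD24Mid cells (1, 3, 5 and 7), described by the series as biological replicates. Both fractions had been depleted of cells bearing CD45, a leukocyte antigen, and of cells that bind the Ulex europaeus lectin UEA, which labels fucose-rich secretory cells. The sources used here do not give strain, age, genotype or any treatment of the mice, and the CD24Mid fraction is called CD24low in the authors' manuscript.

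Absorptive cells arise from stem cells in the crypt, stop dividing and mature while they move up the villus. Maf is a large Maf protein, a basic leucine zipper factor with its own activation domain, and mouse studies tie it to the nutrient uptake programme of villus enterocytes. Mafg and Mafk are small Maf proteins, which lack an activation domain and act as dimers with cap'n'collar (CNC) factors such as Nrf2 or with Bach repressors. Prdm1 (Blimp1) is a zinc finger repressor that in mice holds back the adult enterocyte programme until weaning and that also drives plasma cell differentiation. Isx is an intestine-restricted homeobox repressor that in mice lowers the carotenoid genes Bco1 and Scarb1 in response to retinoic acid. Elf3 and Ehf belong to the epithelium-restricted branch of the Ets family, and mice without Elf3 have malformed villi.

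Promoter windows from RefSeq (build GRCm38.p6, 250 bases before to 50 after the annotated start) were available for 5 of the 7 genes, and Maf and Ehf had no entry. The windows of both small Maf genes and of Isx are shown because they hold a CNC and small Maf core or more than 1 match to the motifs of the factor families themselves. Capitals mark matches on either strand to TGACNNNGC (the core bound by CNC and small Maf dimers), TGCTGA (a Maf half-site), CCGGAA or AGGAAG (2 Ets cores) or GAAAGTGAA (a Prdm1 motif).
Mafk, chr5:139791286-139791585, plus strand: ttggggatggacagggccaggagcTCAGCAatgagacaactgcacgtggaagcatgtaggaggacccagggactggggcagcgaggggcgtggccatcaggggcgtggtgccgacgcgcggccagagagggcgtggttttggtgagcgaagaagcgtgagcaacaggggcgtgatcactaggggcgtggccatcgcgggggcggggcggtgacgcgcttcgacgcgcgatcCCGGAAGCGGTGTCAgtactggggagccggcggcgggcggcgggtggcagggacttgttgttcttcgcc
Mafg, chr11:120633498-120633797, minus strand: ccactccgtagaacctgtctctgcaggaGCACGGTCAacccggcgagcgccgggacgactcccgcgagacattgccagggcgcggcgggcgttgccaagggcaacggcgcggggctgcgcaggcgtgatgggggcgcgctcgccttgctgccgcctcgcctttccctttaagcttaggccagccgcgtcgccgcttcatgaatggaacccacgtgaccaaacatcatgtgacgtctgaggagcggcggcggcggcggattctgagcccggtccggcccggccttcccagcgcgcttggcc
Isx, chr8:74872924-74873223, plus strand: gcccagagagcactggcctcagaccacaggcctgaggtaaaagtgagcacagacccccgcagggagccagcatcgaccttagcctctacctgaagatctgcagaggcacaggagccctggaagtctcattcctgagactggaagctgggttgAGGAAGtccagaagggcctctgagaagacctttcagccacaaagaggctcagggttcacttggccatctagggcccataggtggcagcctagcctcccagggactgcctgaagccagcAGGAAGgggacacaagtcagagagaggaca
In the Mafk window, CCGGAA at bases 232 to 237 adjoined the CNC and small Maf core at bases 238 to 246, which lies on the opposite strand, and a Maf half-site stood at bases 25 to 30. The Mafg window had 1 CNC and small Maf core, at bases 29 to 37 on the opposite strand. The Isx window had AGGAAG at bases 153 to 158 and at bases 271 to 276, and the Prdm1 window had it once, at bases 96 to 101. The Elf3 window had no match to these 5 motifs. Of 32851 promoter windows in the table, 12.4% held the CNC and small Maf core, 19.5% the Maf half-site, 14.9% CCGGAA, 35.4% AGGAAG and 0.581% the Prdm1 motif, so matches to all but the Prdm1 motif are common by letters alone, and the matches are given only as descriptions.

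Each deposited value is a normalised expression estimate of 1 gene in 1 library, and libraries had been scaled to each other. The low values lay on a ladder of even steps, and if 1 step is 1 read, the depth was 12.5 to 20.6 M reads in CD24Neg and 17.5 to 19.7 M in CD24Mid. Mitochondrially encoded genes took 28.3% to 37.4% of the values in CD24Neg and 8.03% to 9.1% in CD24Mid, so reads outside them were 8.12 to 14.65 M in CD24Neg and 15.92 to 18.04 M in CD24Mid. Cd24a, the gene of the sorting antigen, averaged 414 ± 122 in CD24Neg and 2820.5 ± 622 in CD24Mid (SD, n = 4 each). Summed over 7 epithelial markers, the share of values outside mitochondrial genes was 1.03% to 1.30% in CD24Neg and 0.977% to 1.24% in CD24Mid (exact two-sided permutation p = 0.229). CD24Neg libraries 2 and 8 stood apart in T cell markers, which took 0.0733% and 0.0579% of these values there, against 0.0041% and 0.0112% in CD24Neg libraries 4 and 6 and at most 0.00429% in CD24Mid. In whole fractions like these, fewer cells of a type and less RNA per cell cannot be told apart.

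Maf was the gene with the widest difference of the 7. Its value was 5450.5, 5198, 6990.3 and 5913 in CD24Neg libraries 2, 4, 6 and 8, against 695, 295, 440.1 and 556 in CD24Mid libraries 1, 3, 5 and 7. Every CD24Neg library was far above every CD24Mid library, and the CD24Neg mean was 12.4-fold higher on the fitted scale (log2 difference 3.63, SE 0.23, CD24Neg minus CD24Mid). Relative to its level Maf varied more in CD24Mid, with a coefficient of variation of 34.3%, than in CD24Neg, with 13.5%. The medians over all tested genes were 14.3% in CD24Mid libraries and 16.6% in CD24Neg libraries.

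**Figure D1:**
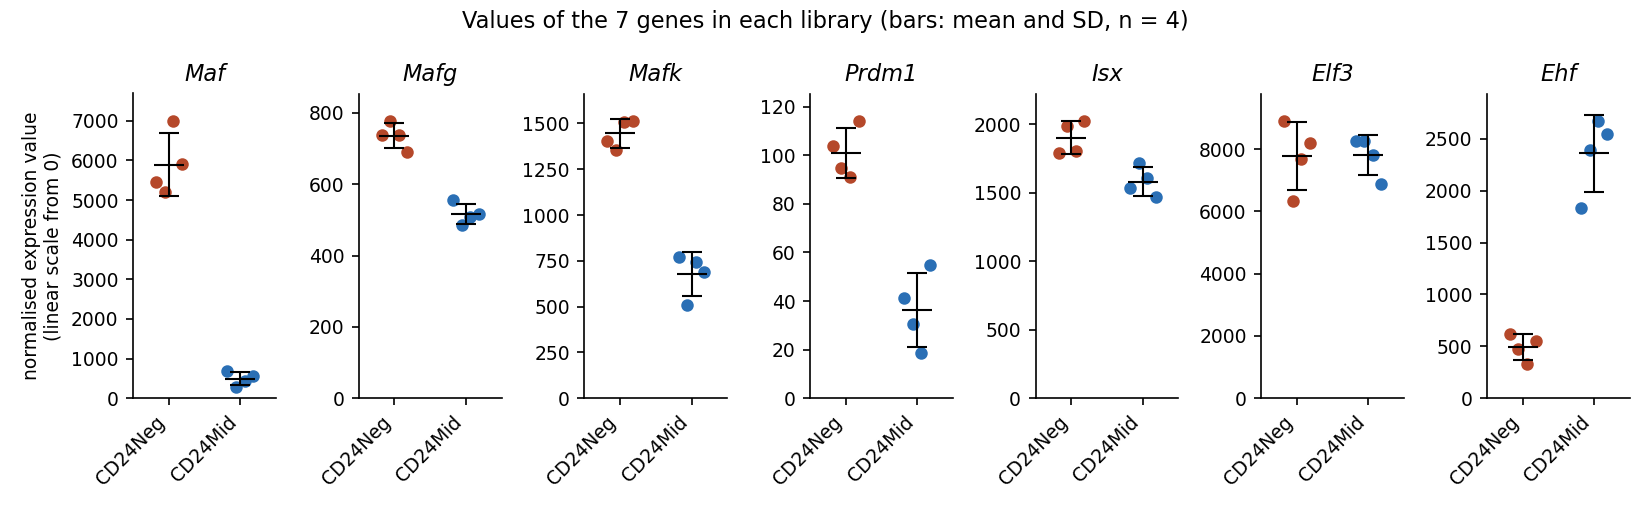
Normalised expression value (linear axis from 0) of each of the 7 genes in CD24Neg and CD24Mid libraries. Points are libraries, horizontal marks and bars are mean and SD (n = 4 per fraction). The fractions do not overlap for 6 genes and overlap for Elf3.

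The small Maf genes were higher in CD24Neg by smaller steps. Mafk had values of 1404, 1357, 1508 and 1512 in CD24Neg libraries 2, 4, 6 and 8, against 769, 508, 746 and 687 in CD24Mid libraries 1, 3, 5 and 7 (2.16-fold, log2 difference 1.11, SE 0.13). Mafg had 736, 776, 739 and 691 in CD24Neg, against 555, 486, 507 and 518 in CD24Mid (1.42-fold, log2 difference 0.51, SE 0.09). For both genes the lowest CD24Neg library stood above the highest CD24Mid library. Their replicates lay close together, with coefficients of variation of 5.33% for Mafk and 4.76% for Mafg in CD24Neg and of 17.5% and 5.60% in CD24Mid. Part of each gene's exons overlaps a neighbour in the GENCODE M21 annotation. For Mafk, 169 exon bases are shared with Tmem184a on the opposite strand, which itself averaged 2389 ± 345 in CD24Neg and 1023 ± 125 in CD24Mid (SD, n = 4 each). For Mafg, 124 exon bases are shared with Sirt7 on the same strand, which averaged 1796 ± 205 in CD24Neg and 594 ± 91.8 in CD24Mid (SD, n = 4 each). Reads in the bases shared by Mafg and Sirt7 cannot be told apart by strand, and for Mafk and Tmem184a the sources used here do not say whether strand was used, so a part of the reads of both genes is uncertain.

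The size of the Mafg difference depended on the scaling. Total scaling, in which each library is divided by its sum over all but the 20 most abundant genes, put the median log2 difference of all tested genes at -0.44, against -0.02 with the scaling on median ratios. Under it the Mafg difference was 0.08 (SE 0.09), which is 0.53 above that median. Maf was then at 3.20 and Mafk at 0.68. Maf, Mafg and Mafk ranked alike at the ends of the CD24Mid group, since each was highest in CD24Mid library 1 and lowest in CD24Mid library 3.

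Prdm1 had the lowest values of the 7 genes in both fractions. It stood at 104, 94.8, 90.9 and 114 in CD24Neg libraries 2, 4, 6 and 8, against 41.1, 30.5, 18.7 and 54.7 in CD24Mid libraries 1, 3, 5 and 7. All CD24Neg libraries were above all CD24Mid libraries, and the log2 difference was 1.56 (SE 0.30, 2.95-fold). These values correspond to an estimated 56.4 to 84.6 reads per CD24Neg library and 31.1 to 94.0 reads per CD24Mid library, so the CD24Mid spread (a coefficient of variation of 42.3%) includes counting error. Without CD24Neg libraries 2 and 8, the log2 difference was 1.47 (SE 0.40).

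Prdm1 is also expressed by plasma cells and by T cells, and markers of both moved between the fractions. The 10 plasma cell markers found in the tables summed to 0.00953% to 0.0149% of values outside mitochondrial genes in CD24Neg and to 0.0715% to 0.158% in CD24Mid (exact two-sided permutation p = 0.0286, the smallest that 4 against 4 libraries can give). Plasma cell markers were thus lower in the fraction in which Prdm1 was higher. Most of the CD24Neg sum was Sdc1, at 1348 ± 156 in CD24Neg and 1829 ± 196 in CD24Mid (SD, n = 4 each). Most of the CD24Mid sum was Jchain (280 ± 98.6 in CD24Neg and 5512 ± 1915 in CD24Mid) and Igkc (277 ± 92.5 and 5648.5 ± 1987.5). Within CD24Mid, library 7 had the highest and library 5 the lowest sum of plasma cell markers, at 0.158% and 0.0715%, and the same libraries had the highest and the lowest Prdm1 value. The 15 T cell markers summed to 0.00411% to 0.0733% in CD24Neg and 0.00173% to 0.00429% in CD24Mid (p = 0.0571 in the same exact test). All 15 were above 0 in every library. Within each fraction, the 2 libraries with the most T cell markers (2 and 8 in CD24Neg, 1 and 7 in CD24Mid) were also the 2 with the highest Prdm1 values. In CD24Neg library 4, whose T cell marker share lay within the CD24Mid range, Prdm1 was at 94.8, above the highest CD24Mid value of 54.7. The part of plasma cells and T cells in the Prdm1 difference was not tested.

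**Figure D2:**
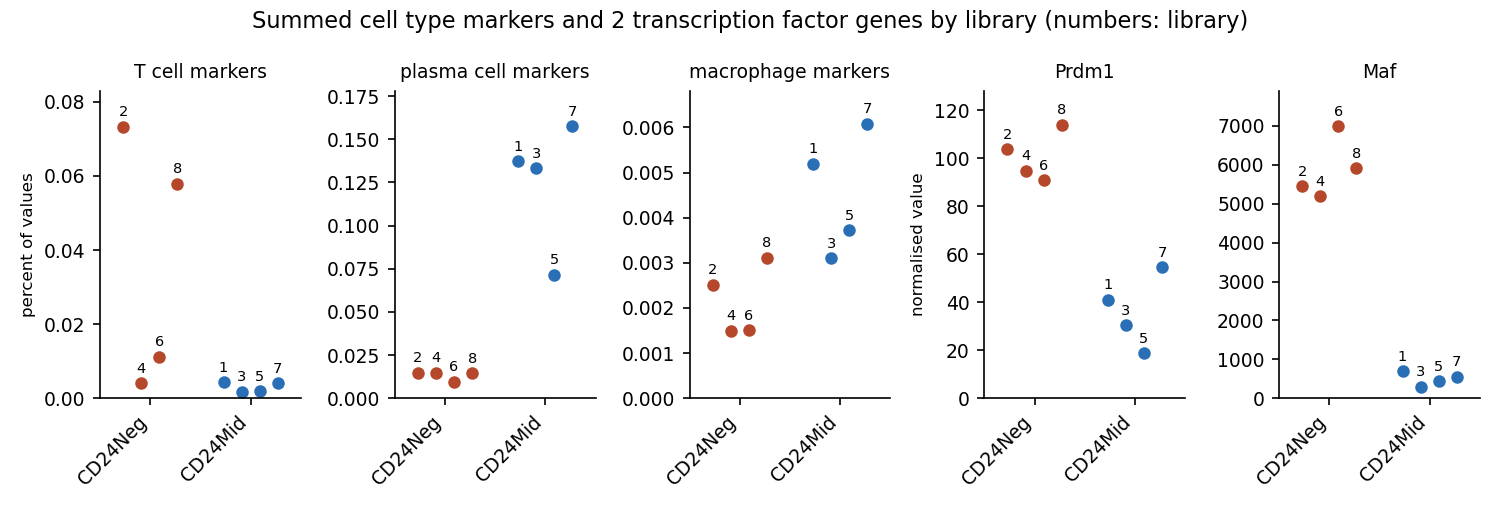
Summed T cell, plasma cell and macrophage markers as percent of values outside mitochondrial genes, and normalised values of Prdm1 and Maf, by library (linear axes from 0, numbers name libraries). T cell markers stand out in CD24Neg libraries 2 and 8, at 0.0733% and 0.0579%, while Prdm1 and Maf are higher in all 4 CD24Neg libraries than in any CD24Mid library.

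Isx differed little between the fractions. Its value was 1787, 1986, 1807 and 2021 in CD24Neg libraries 2, 4, 6 and 8, against 1531, 1720.1, 1606 and 1467 in CD24Mid libraries 1, 3, 5 and 7, so the ranges were separate but adjacent. The log2 difference was 0.27 (SE 0.09, 1.20-fold) with the scaling on median ratios, and it turned to -0.13 (SE 0.10) under quantile normalization and to -0.16 (SE 0.10) under total scaling. The last value is 0.28 above the median of all genes under that scaling.

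Elf3 had the highest level of the 7 genes and nearly equal means. It stood at 8895, 6319, 7676 and 8197 in CD24Neg libraries 2, 4, 6 and 8, against 8261, 8267, 7805 and 6893 in CD24Mid libraries 1, 3, 5 and 7. The ranges overlapped, and the log2 difference was -0.01 (SE 0.13), with -0.50 under quantile normalization and -0.44 under total scaling. The sign of this small value changed without CD24Neg library 4 (0.09) and without CD24Mid library 1 or 3 (0.01 each). Relative to the median of all tested genes under the same scaling, Elf3 was at 0.003 with total scaling and at -0.43 with quantile normalization.

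Ehf, the second epithelial Ets gene, was the 1 gene of the 7 with separate ranges that was lower in CD24Neg. It had 619, 479, 328 and 553 in CD24Neg libraries 2, 4, 6 and 8, against 1828, 2387, 2669 and 2548 in CD24Mid libraries 1, 3, 5 and 7. No CD24Neg library reached any CD24Mid library, and the difference was 4.84-fold (log2 difference -2.28, SE 0.20). It was between -2.70 and -2.09 under all alternatives run. In the same libraries the level of Elf3 per kilobase of exon was 33.2 to 58.9 times that of Ehf in CD24Neg and 6.80 to 11.4 times in CD24Mid.

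**Figure D3:**
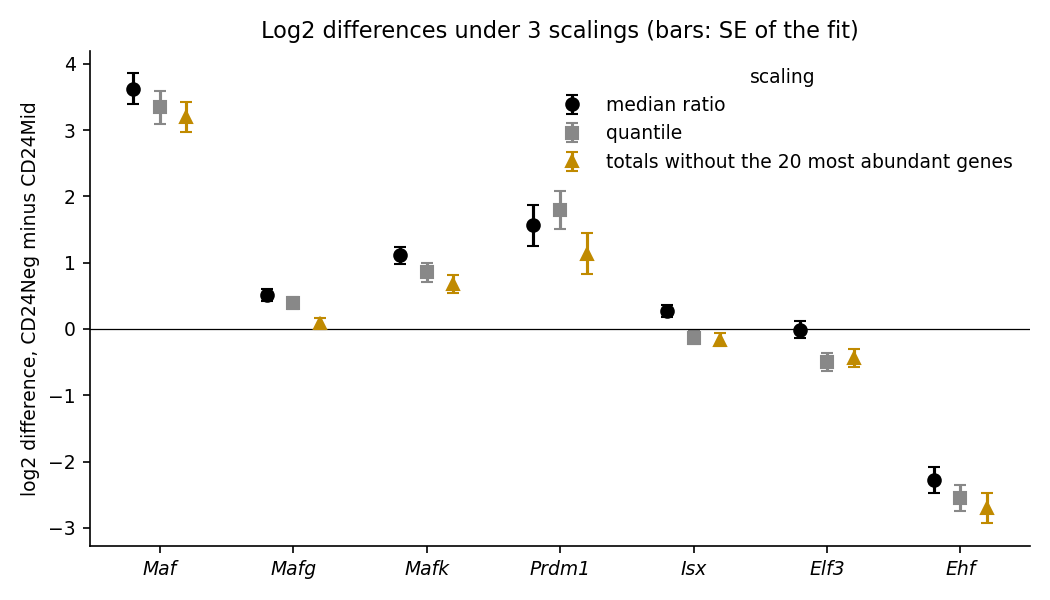
Log2 difference, CD24Neg minus CD24Mid, of the 7 genes under 3 scalings of the libraries (bars are the SE of the fit). Maf, Mafk and Prdm1 stay above 0 and Ehf stays below 0, Mafg is at 0.083 (SE 0.085) under total scaling, while Isx is at 0.27, -0.13 and -0.16.

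In the fit across all genes, 5 of the 7 genes were called higher and 1 lower in CD24Neg, at an adjusted p under 0.05 in limma, and Elf3 was not called. Since 34.0% of the 12906 tested genes were called higher, 34.3% lower and 68.3% in either direction, and since the genes were chosen from this contrast, nothing is read from that count. Separate ranges were seen for 6 of the 7 genes, 5 higher and 1 lower in CD24Neg, and for 63.8% of all tested genes, 31.8% higher and 32.1% lower.

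Levels of different genes can be compared only per length, for which values were divided by the union of exon lengths in GENCODE M21. On this scale of values per kilobase, the order in CD24Neg was Elf3 (3506 ± 492), Isx (1060 ± 67.2), Maf (714 ± 96.1), Mafk (370.5 ± 19.7), Mafg (131 ± 6.24), Ehf (88.7 ± 22.4) and Prdm1 (18.1 ± 1.85; SD, n = 4 libraries). In CD24Mid it was Elf3 (3521 ± 292), Isx (882 ± 60.5), Ehf (423 ± 66.7), Mafk (174 ± 30.3), Mafg (92.0 ± 5.15), Maf (60.2 ± 20.7) and Prdm1 (6.50 ± 2.75). No 2 neighbours in either order had overlapping ranges over the 4 libraries. Maf stood above Mafk, Mafg and Ehf in CD24Neg and below all 3 in CD24Mid. Maf per kilobase was 1.13 to 1.47 times the sum of the small Maf genes Mafg, Mafk and Maff in CD24Neg and 0.139 to 0.238 times that sum in CD24Mid. Mafk made up 64.8% ± 2.32 of the small Maf sum in CD24Neg and 54.6% ± 2.83 in CD24Mid (SD, n = 4 each).

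**Figure D4:**
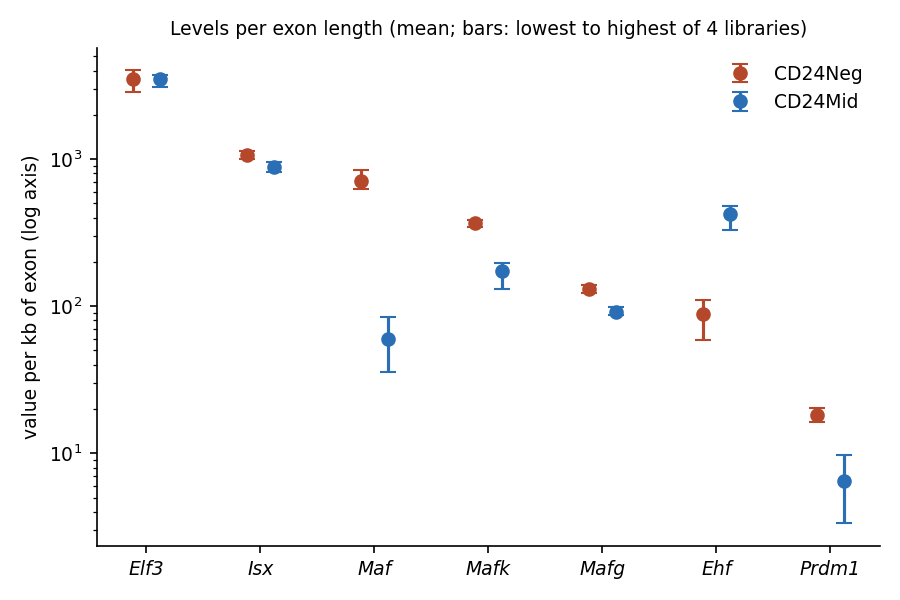
Value per kilobase of exon (log axis) of the 7 genes in CD24Neg and CD24Mid libraries. Points are means and bars run from the lowest to the highest of 4 libraries. Elf3 is highest and Prdm1 lowest in both fractions, and Maf and Ehf trade places.

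The partners and relatives of the Maf genes were mostly higher in CD24Neg. Of 6 tested genes among the CNC and Bach factors, Keap1 and Maff, 5 rose and none fell (median log2 difference 0.51, against -0.02 over all tested genes). Over all tested genes 34.0% rose and 34.3% fell. With total scaling, 2 of the 6 were called higher and 1 lower, and 3 were called higher without CD24Mid library 7. Nfe2l2, which encodes Nrf2, was 2.30-fold higher (6527 ± 1127 in CD24Neg and 2816 ± 278 in CD24Mid, adjusted p = 3.60e-05). Bach1, a repressor that competes for small Maf partners, was 1.48-fold higher (1182 ± 202 in CD24Neg and 793 ± 104 in CD24Mid, adjusted p = 0.00632). The Bach1 call ended under quantile normalization, total scaling and when a change beyond 1.5-fold was required (adjusted p from 0.000627 to 0.907 over 20 alternatives). Nfe2l1, which encodes Nrf1, averaged 1689 ± 73.0 in CD24Neg and 1699 ± 137 in CD24Mid and did not pass (adjusted p = 0.958). Quantile normalization and total scaling each called Nfe2l1 lower (log2 difference -0.41 and -0.43, adjusted p = 0.00252 and 0.00196). Maff, the remaining small Maf gene, passed with all libraries (181 ± 21.1 in CD24Neg and 133 ± 20.4 in CD24Mid, adjusted p = 0.0255). That call ended without CD24Neg library 2 or 4 or CD24Mid library 3 or 7 (adjusted p from 0.0511 to 0.0767), and its adjusted p ranged from 0.00295 to 1 over 20 alternatives.

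Macrophages also express Maf. The 11 macrophage markers summed to 0.0015% to 0.00311% of values outside mitochondrial genes in CD24Neg and to 0.00311% to 0.00608% in CD24Mid (exact two-sided permutation p = 0.0571). Of the 5 that were tested, Csf1r and Lyz2 fell (limma adjusted p = 0.0392 and 0.0127), Mrc1 rose (22.7 ± 7.73 in CD24Neg and 10.8 ± 4.59 in CD24Mid, adjusted p = 0.043), and Cd68 and Itgam did not pass. Csf1r averaged 12.1 ± 15.6 in CD24Neg and 45.2 ± 36.1 in CD24Mid (SD, n = 4 each). Itgam, which made up most of the macrophage marker sum in both fractions, averaged 233 ± 72.1 in CD24Neg and 308 ± 42.3 in CD24Mid. T cells express Maf as well. Without CD24Neg libraries 2 and 8, which had the most T cell markers, the log2 difference of Maf was 3.69 (SE 0.31). The part of macrophages and T cells in the Maf difference was not tested.

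Antioxidant and iron storage genes whose promoters small Maf dimers bind were counted next. Of 17 tested genes 12 rose and none fell in CD24Neg (34.0% and 34.3% over all tested genes), with a median log2 difference of 1.52. The 3 with the highest mean were the ferritin genes Fth1 (63658 ± 16812 in CD24Neg and 20529.6 ± 5304 in CD24Mid, adjusted p = 0.000205) and Ftl1 (12847 ± 2633 in CD24Neg and 5305 ± 862 in CD24Mid, adjusted p = 8.89e-05) and the catalase gene Cat (7659 ± 2559 in CD24Neg and 1583 ± 310.4 in CD24Mid, adjusted p = 2.35e-05). With total scaling, 3 genes of this list were called lower.

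The other Prdm genes were mixed. Of 8 tested genes 2 rose, 1 fell and 5 did not pass (median log2 difference 0.21). Over all tested genes 34.0% rose and 34.3% fell. Prdm2 was 1.25-fold higher (953 ± 61.8 in CD24Neg and 763 ± 63.2 in CD24Mid, adjusted p = 0.0123), a direction that turned to -0.11 under total scaling. Mecom, whose product is a stem cell associated zinc finger factor, was 5.20-fold lower (55.0 ± 6.82 in CD24Neg and 294 ± 75.2 in CD24Mid, adjusted p = 4.63e-06). Prdm16 (716 ± 128 in CD24Neg and 536 ± 165 in CD24Mid, adjusted p = 0.0941) and Prdm4 (471 ± 27.1 in CD24Neg and 472 ± 23.5 in CD24Mid, adjusted p = 0.965) did not pass. Without CD24Mid library 7, Prdm16 passed (adjusted p = 0.047, range 0.047 to 1 over 20 alternatives). Under total scaling Prdm4 was called lower (log2 difference -0.43, adjusted p = 0.0029).

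Mouse studies of Prdm1 name genes of the suckling and of the adult enterocyte. Of 4 tested suckling-stage genes 2 rose in CD24Neg and 1 fell, and all 3 adult-stage genes rose. The shares over all tested genes were 34.0% rising and 34.3% falling. Among the suckling-stage genes, the lactase gene Lct was at 39254 ± 15536 in CD24Neg and 367 ± 84.4 in CD24Mid (adjusted p = 1.80e-07), and Fcgrt, the neonatal Fc receptor gene, at 2171 ± 274 in CD24Neg and 856 ± 271 in CD24Mid (adjusted p = 0.000138). Ass1, which encodes argininosuccinate synthase, fell to 17.3 ± 11.1 in CD24Neg, against 141 ± 27.1 in CD24Mid (adjusted p = 0.000116), and Glb1 did not pass (649 ± 63.4 in CD24Neg and 718 ± 75.2 in CD24Mid, adjusted p = 0.276). Glb1 was called lower under quantile normalization (log2 difference -0.31, adjusted p = 0.0351) and under total scaling (-0.57, adjusted p = 0.000586). The adult-stage genes were the sucrase-isomaltase gene Sis (8.06-fold higher, adjusted p = 8.75e-06), the arginase gene Arg2 (5.11-fold, adjusted p = 8.85e-06) and the trehalase gene Treh (56.9-fold, adjusted p = 1.81e-07).

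Genes around Isx were mixed. Of 12 tested genes of carotenoid uptake, retinoid handling and Isx regulation, 7 rose and 1 fell in CD24Neg (median log2 difference 0.84). By comparison, 34.0% of all tested genes rose and 34.3% fell. The list includes Bco1 and Scarb1, which Isx represses in mice, and an effect of Isx on them was not tested. Bco1, the carotenoid cleavage enzyme gene, had 15.8 to 311 in CD24Neg and 16.0 to 24.9 in CD24Mid, so its ranges overlapped although it passed (log2 difference 2.08, SE 0.73, adjusted p = 0.0267). The Bco1 call ended without CD24Neg library 4, 6 or 8 or CD24Mid library 1 or 7 (adjusted p from 0.0529 to 0.0679), with no filter, under total scaling and when a change beyond 1.5-fold was required. Over 20 alternatives its adjusted p lay between 8.20e-05 and 0.0996. Scarb1, a scavenger receptor gene, had 75.8 to 233 in CD24Neg and 80.5 to 114 in CD24Mid and did not pass (adjusted p = 0.105), but it passed without CD24Neg library 8 (adjusted p = 0.00515) and with adjacent library numbers as a replicate block (adjusted p = 0.0233). All 20 alternatives for Scarb1 gave an adjusted p from 0.00237 to 0.806. Rbp2, which encodes the intestinal retinol binding protein, was 36.0-fold higher (44258 ± 4794 in CD24Neg and 1286 ± 503 in CD24Mid, adjusted p = 1.81e-07), and the retinoid receptor gene Rxra was 1.86-fold higher (2785 ± 407 in CD24Neg and 1490.2 ± 123 in CD24Mid, adjusted p = 9.93e-05). Of the caudal homeobox genes, Cdx2 did not pass (3174 ± 421 in CD24Neg and 3310.3 ± 508 in CD24Mid, adjusted p = 0.73), and Cdx1 fell 1.54-fold (1651 ± 193 in CD24Neg and 2546 ± 310 in CD24Mid, adjusted p = 0.000919). Cdx2 was called lower under quantile normalization (log2 difference -0.57, adjusted p = 0.00252) and under total scaling (-0.48, adjusted p = 0.00699).

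More of the other Ets genes were lower than higher in CD24Neg. Of 18 tested Ets genes besides Elf3 and Ehf, 3 rose, 9 fell and 6 did not pass (median log2 difference -0.54, against -0.02 over all tested genes). Over all tested genes, 68.3% were called, 34.0% higher and 34.3% lower. Ets2 fell 1.48-fold (1519 ± 122 in CD24Neg and 2246 ± 178 in CD24Mid, adjusted p = 0.000516), and Etv6, a repressor of the family, fell 2.67-fold (578 ± 53.9 in CD24Neg and 1544.5 ± 108 in CD24Mid, adjusted p = 1.26e-06). Etv3 rose 1.76-fold (1364 ± 120 in CD24Neg and 782 ± 129 in CD24Mid, adjusted p = 0.00026). Elf4 was 1.17-fold higher at an adjusted p of 0.0441, a call that ended without any 1 of CD24Neg libraries 2 and 4 and of the 4 CD24Mid libraries, and its sign turned to -0.20 under total scaling (adjusted p from 0.0226 to 1 over 20 alternatives). Spdef, the Ets factor of goblet and Paneth cells, did not pass (309 ± 97.6 in CD24Neg and 262 ± 51.8 in CD24Mid, adjusted p = 0.473). Beside it, the 7 goblet cell markers, Spdef among them, summed to 2.20% ± 1.02 of values outside mitochondrial genes in CD24Neg and 0.614% ± 0.0965 in CD24Mid (exact two-sided permutation p = 0.0286).

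Elf3 acts on villus shape in mice through Tgfbr2, a receptor gene of transforming growth factor beta. Tgfbr2 was 2.29-fold lower (169 ± 48.5 in CD24Neg and 376 ± 29.2 in CD24Mid, adjusted p = 0.000414). Of the 6 tested receptor and Smad genes of that pathway 2 fell and none rose, where 34.3% of all tested genes fell and 34.0% rose. Smad2, Smad3 and Smad4, the signal carriers, had adjusted p of 0.805, 0.268 and 0.378 and averaged 421 ± 20.3, 687 ± 88.4 and 1455 ± 249 in CD24Neg and 413 ± 32.2, 615 ± 44.4 and 1583 ± 128 in CD24Mid. With total scaling all 6 were called lower.

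The programmes that the villus expresses were counted last. Of 15 tested nutrient uptake genes 14 rose in CD24Neg and none fell (median log2 difference 3.85), among them Fabp2, a fatty acid binding protein gene (22.0-fold, adjusted p = 1.94e-07), Mttp, which loads lipoproteins (7.27-fold, adjusted p = 2.91e-06), and Apob, their structural protein gene (14.4-fold, adjusted p = 2.04e-05). Of 11 villus tip genes 9 rose and 1 fell (median log2 difference 2.98). For both lists, the shares over all tested genes were 34.0% rising and 34.3% falling. The apolipoprotein genes Apoa1 and Apoa4 were 108-fold and 97.1-fold higher (adjusted p = 1.55e-07 and 2.66e-07), Egfr, which encodes a growth factor receptor, was 2.08-fold lower (adjusted p = 0.000226), and the immediate early gene Fos did not pass (10227 ± 2189 in CD24Neg and 12539 ± 3432 in CD24Mid, adjusted p = 0.313). With adjacent library numbers as a replicate block, Fos passed as lower (adjusted p = 0.0395). It also passed as lower under quantile normalization (adjusted p = 0.0121) and under total scaling (adjusted p = 0.0224). All comparisons of these lists share the same 8 libraries, and the share of mitochondrially encoded transcripts differed between the fractions as given above.

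The genes whose profile was most like that of each of the 7 were taken over all 8 libraries, by the root mean square difference of log2 values centred on the gene's own mean. For Maf they were Il18, Irf7 and Stk10, with differences of 0.15, 0.18 and 0.19. Mafg was closest to Clstn1, Rabgef1 and Fbxl18 (0.05, 0.05 and 0.06), and Mafk to Mst1r, Mknk1 and Plxnb2 (0.09 each). The nearest to Prdm1 were farther off, with Dusp10, Ppp1r16b and Il20rb at 0.22, 0.24 and 0.26. Isx was nearest to Ulk1, Fam50a and Osbpl9 (0.07 each), Elf3 to Slc25a4, Hdgfl2 and Triap1 (0.07, 0.07 and 0.08), and Ehf to Ccnd2, Tbc1d4 and Zfhx3 (0.13, 0.13 and 0.15). Ccnd2, which encodes cyclin D2, averaged 1036 ± 227 in CD24Neg and 4569 ± 419 in CD24Mid (SD, n = 4 each).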

How the data were processed

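RNA of CD24Neg and CD24Mid cells was made into TruSeq libraries, per the labels' protocols, and 4 libraries per fraction were grouped by their titles. The authors deposited a signal per Ensembl gene and library, a normalised expression estimate that is not divided by gene length as far as their low values show. Alignment tool and build appear in the submitters' processing notes as Bowtie 0.12.8 and NCBIM37. For the annotation release and the scaling method: not given in the sources used here. Reads were estimated from the spacing of the low values. The values are estimates and not whole reads, so count models were left out.

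A gene entered the fit if 4 or more libraries reached a value of 10, which all 7 members did. After centring each library by its median ratio, limma 3.58.1 in R 4.3.3 (trend and robust variance, no covariates) was run on log2(value + 0.5), with Benjamini-Hochberg adjustment over 12906 genes at 0.05. The pseudocount makes fold changes of low genes too small. Adjusted p-values are from this fit unless an alternative is named beside them. Exact permutation tests used scipy 1.17.1. The fit was tested on simulated data.

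The members and lists were chosen with earlier results of these data known. The rule for named genes took, beside the members and Cd24a, the 3 most abundant tested genes of each list, up to 2 called against the list's direction, Scarb1, Bco1, Spdef, Maff, Nfe2l2 and Tgfbr2, and the 3 closest profiles per member. An item that was also listed is not reported here. Tmem184a and Sirt7, as overlapping neighbours, and Csf1r, Lyz2, Mrc1, Cd68 and Itgam, as the tested macrophage markers, fall outside it and were named after their values were seen. The same holds for the plasma cell markers Sdc1, Jchain and Igkc, for the named stromal markers and for the tuft cell markers Ltc4s, Pou2f3 and Gfi1b. Symbols came from GENCODE M21, which matched 21223 of 23318 identifiers. Alternatives were other scalings, pseudocounts of 0.1 and 1, other filters, limma without trend, a test against a fold change of 1.5, leaving out mitochondrially encoded genes, leaving out libraries and, added after seeing the data, a block on adjacent library numbers.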

Additional observations from a re-analysis of the deposited data

Results flagged for a closer look

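In 96 groups of 4 libraries (each named gene in each fraction), 1 value lay far from the others by the ratio of its gap to the range of the group. Cdx1 was at 1937 in CD24Neg library 4, against 1532 to 1595 in CD24Neg libraries 2, 6 and 8, a gap of 0.843 of the range, which is past Dixon's 95% limit for 4 values. Chance alone gives such a value in about 1 in 20 groups.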

How the results depend on the processing

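Maf, Mafk and Prdm1 stayed higher and Ehf lower in CD24Neg in every alternative run, while Mafg was less than its SE from 0 under total scaling. Under total scaling the log2 differences were 3.20 for Maf, 0.083 (SE 0.085) for Mafg, 0.68 for Mafk, -0.16 for Isx, -0.44 for Elf3 and -2.70 for Ehf, and 2842 genes were called higher and 6497 lower, against 4386 and 4424. Under quantile normalization they were 0.385 for Mafg, 0.85 for Mafk, -0.13 for Isx and -0.50 for Elf3. When a change beyond 1.5-fold was required, 2360 genes were called higher and 2430.0 lower. Leaving out 1 library gave 3970 to 4266 genes higher and 3882 to 4306 lower.

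Among the CNC and Bach genes, Keap1 and Maff, 3 were called higher under quantile normalization, 2 under total scaling, 2 beyond 1.5-fold and 3 without CD24Neg libraries 2 and 8, with 3 to 5 when 1 library was left out, and 1 was called lower under quantile normalization and 1 under total scaling. Of the antioxidant genes, 1 was lower under quantile normalization, 3 under total scaling and 1 without CD24Neg libraries 2 and 8, with 0 to 2 when 1 library was left out (2 without CD24Neg library 4). Of the other Prdm genes, 1 was higher under total scaling and 1 beyond 1.5-fold, and 3 were lower under total scaling. Of the suckling-stage genes, 2 were lower under either scaling. Of the Isx and retinoid genes, 4 were higher and 0 lower beyond 1.5-fold, and 3 were lower under either scaling. Of the other Ets genes, 1 was higher under either scaling and 0 beyond 1.5-fold, 5 were lower beyond 1.5-fold, and 1 to 4 were higher when 1 library was left out. Of the Tgf-beta receptor and Smad genes, 1 was higher with a mean of at least 1 as the filter, 6 were lower under total scaling and 1 beyond 1.5-fold, and 0 to 1 were higher when 1 library was left out. Of the nutrient uptake genes, 1 was lower under either scaling and 1 without CD24Neg libraries 2 and 8, with 0 to 1 when 1 library was left out. Of the villus tip genes, 2 were lower under either scaling. Prdm2 turned to -0.11 under total scaling, and Elf4 to -0.027 under quantile normalization and -0.20 under total scaling. The cause was not tested.

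With mitochondrial genes in the denominator, the log2 ratio of summed markers was -1.53 for macrophages and -0.32 for epithelial markers (exact permutation p = 0.0286 for each). Without them in the denominator the epithelial ratio was 0.13 (exact permutation p = 0.229), so its sign depended on the denominator. Leaving out 1 library gives 3 against 4, where the smallest exact p is 0.0571, so no marker sum can pass. The log2 ratios then ranged from -3.41 to -3.08 for plasma cells, -2.05 to -1.20 for stromal, -0.41 to 0.19 for endothelial, -4.45 to -4.05 for crypt stem cell, 4.28 to 4.56 for enterocyte, 1.55 to 2.05 for goblet and -3.11 to -2.73 for enteroendocrine markers. The groups share no replicate numbers and no label states a pairing, but each library's deviations from its fraction's mean correlated best with those of the adjacent number in the other fraction (CD24Neg 2 with CD24Mid 1, and so on; 0.282 to 0.332 over 12906 genes for the 4 adjacent pairs, at most 0.0331 for the others). This pairing is a hint from the data, and a fit with it as a replicate block was added after seeing them. It called 4733 genes higher and 4771 lower, called Scarb1 and Fos, and called 1 antioxidant gene, 1 nutrient uptake gene and 2 villus tip genes lower. It changed no other call of a named gene. Each block holds 1 library of each fraction, so the log2 differences of the 7 genes could not change. Replicates are described as biological, with no animal named for any library, and depth limits low genes such as Prdm1 and Bco1.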

Other observations

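Other cell types of the epithelium differed between the fractions in their summed markers, as percent of values outside mitochondrial genes (exact two-sided permutation tests, smallest possible p 0.0286). The 9 enterocyte markers took 4.04% ± 0.973 in CD24Neg and 0.189% ± 0.0414 in CD24Mid, and the 7 crypt stem cell markers 0.0284% ± 0.0131 in CD24Neg and 0.537% ± 0.0709 in CD24Mid (SD, n = 4 each, exact permutation p = 0.0286 for both). The 6 enteroendocrine markers took 0.00693% ± 0.00118 in CD24Neg and 0.0527% ± 0.0176 in CD24Mid (exact permutation p = 0.0286). The 6 tuft cell markers, with Gfi1b at 0 in all CD24Neg libraries, took 0.00132% ± 0.000529 in CD24Neg and 0.000724% ± 0.000275 in CD24Mid (exact permutation p = 0.0857). Most of the CD24Neg sum was Ltc4s (135 ± 53.2 in CD24Neg and 7.90 ± 4.80 in CD24Mid, limma adjusted p = 2.52e-05). Pou2f3 went the other way (2.71 ± 3.38 in CD24Neg and 26.6 ± 14.5 in CD24Mid, limma adjusted p = 0.0023). The other 2 tested tuft cell markers did not pass, so the sum gives no single direction for these markers.

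Stromal and endothelial markers were close to 0. The 6 stromal markers summed to 0.000178% to 0.000967% in CD24Neg and 0.00104% to 0.00165% in CD24Mid (exact permutation p = 0.0286). Most of this sum was Vim (63.7 ± 45.9 in CD24Neg and 144 ± 26.3 in CD24Mid, SD, n = 4 each). Col1a1, Col1a2, Col3a1, Dcn and Pdgfra did not enter the fit and went the other way. Their means were 0.197 to 3.13 in CD24Neg and 0 to 0.56 in CD24Mid, so the sum gives no single direction for stromal markers. The 4 endothelial markers summed to 0.000105% to 0.000349% in CD24Neg and 0.000137% to 0.000284% in CD24Mid (exact permutation p = 0.943).

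Several genes outside the rule, chosen after their values were seen, had large differences within the families. The Ets genes Etv4 and Etv5, known as targets of growth factor signalling, averaged 1.12 ± 1.65 and 5.70 ± 5.49 in CD24Neg and 39.7 ± 9.80 and 105 ± 23.7 in CD24Mid. Fev, an Ets factor of serotonergic cells, averaged 5.40 ± 1.45 in CD24Neg and 47.7 ± 23.1 in CD24Mid. Prdm9, known for its role in meiosis, averaged 298 ± 58.8 in CD24Neg and 103 ± 6.35 in CD24Mid (SD, n = 4 each).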
